A study of Homo sapiens with 6 samples.

Results

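The genes described here encode 5 laminin chains (LAMA3, LAMA5, LAMB1, LAMB3 and LAMC1), the laminin-binding integrin subunits ITGA3, ITGA6 and ITGB4, and the cytolinker plectin (PLEC). They were chosen as a named family of 9 genes, with earlier results of these data known. They were matched by symbol to the Entrez gene IDs of a count table of 28395 genes. All 9 passed the filter on low counts that kept 13950 genes. RNA-seq libraries came from MDA-MB-468-PR, a derivative of the human triple-negative breast cancer cell line MDA-MB-468 that was made by exposure to paclitaxel at 3 to 4.5 nM for 2 months, and from the parental line itself. Paclitaxel is a drug that stabilises microtubules. There were 3 resistant libraries of the derivative and 3 control libraries of the parental line, and all 6 samples are labelled untreated. By the labels, replicate 1 of each line belongs to a 2020 batch, and replicates 2 and 3 of each line belong to 2021. The resistant libraries come from 1 derivative, so drug exposure and any other history of that derivative cannot be told apart. Libraries were enriched with exome probes before sequencing.

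Laminins are large secreted glycoproteins of the basement membrane, the sheet of matrix on which epithelial cells rest. Each is a trimer of an alpha, a beta and a gamma chain. LAMA3 and LAMB3 are chains of the laminin that anchors epithelia, including breast myoepithelium, whereas LAMA5 assembles with LAMB1 or LAMB2 and with LAMC1 into a laminin of most adult epithelial basement membranes. Cells bind both through integrins. ITGA3 pairs with ITGB1 and signals from focal adhesions, and ITGA6 pairs with ITGB1 or with ITGB4. The ITGA6 and ITGB4 pair is the core of the hemidesmosome, where plectin joins the tail of ITGB4 to keratin filaments.

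Total counts lay between 37889818 and 93680129 per library. A gene with 0 counts could still lie at up to 3 counts, which was 0.0311 to 0.0808 CPM (counts scaled to library size) depending on the library. Intervals and limits of this kind cover counting error only. Epithelial markers were high in both groups (EPCAM, CDH1, KRT7, KRT8, KRT18 and KRT19 summed to 6140 to 6708 CPM in resistant and to 6043 to 7984 CPM in control libraries). Of 7 fibroblast markers 2 were high enough to test and the summed level was 23.8 to 28.6 CPM in resistant and 24.9 to 31 CPM in control libraries, nearly all of it COL1A1, while LUM had no count in any library. Leukocyte markers summed to 12.1 to 18.9 CPM in resistant and 8.65 to 21 CPM in control libraries. Most of that sum was CD14, at 6.51 to 18.7 CPM over the 6 libraries. CD68 was at 2.06 to 4.17 CPM, and PTPRC was at most 0.09 CPM in any library. Endothelial markers summed to 15.8 to 66.2 CPM in resistant and 9.58 to 26.1 CPM in control libraries, most of it KDR. Their part in the results was not tested. PGR had no count. ESR1 was at 0.738 to 4.55 CPM and ERBB2 at 93.5 to 138 CPM over the 6 libraries, and neither was called. Of 5 markers of basal-like lines, KRT5, KRT6A, KRT17 and CDH3 were not called. EGFR, which this line is known to carry at high copy number, rose 1.61-fold with overlapping groups (edgeR adjusted p = 0.0199). That call ended without the batch term, in the 2021 libraries alone, and without control replicate 1 or any 1 resistant library.

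The promoter sequences of the laminin chains are shown because LAMB3 and LAMB1 passed the test of the difference between the lines, LAMA3 is the partner of LAMB3, and LAMC1 was level. RefSeq sequences (GRCh38.p14) were found for 6 of the 9 genes. Each line gives the 250 bases before a transcription start, 5′ to 3′ on the strand of the gene, and capitals mark matches to TGANTCA, the letters bound by the AP-1 transcription factors, which read alike on both strands.
LAMA3, chr18:23872770-23873019, plus strand: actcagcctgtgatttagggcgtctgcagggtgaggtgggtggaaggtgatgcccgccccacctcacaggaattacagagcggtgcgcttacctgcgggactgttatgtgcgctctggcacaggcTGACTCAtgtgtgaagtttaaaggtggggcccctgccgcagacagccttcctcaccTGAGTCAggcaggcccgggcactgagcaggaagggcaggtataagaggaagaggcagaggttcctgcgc
LAMB3 start 1, chr1:209652426-209652675, minus strand: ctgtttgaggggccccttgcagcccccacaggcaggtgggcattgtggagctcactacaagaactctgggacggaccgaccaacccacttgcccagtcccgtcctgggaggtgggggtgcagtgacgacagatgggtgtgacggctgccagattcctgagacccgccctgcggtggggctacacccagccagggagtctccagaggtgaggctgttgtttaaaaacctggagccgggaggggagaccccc
LAMB3 start 3, chr1:209651375-209651624, minus strand: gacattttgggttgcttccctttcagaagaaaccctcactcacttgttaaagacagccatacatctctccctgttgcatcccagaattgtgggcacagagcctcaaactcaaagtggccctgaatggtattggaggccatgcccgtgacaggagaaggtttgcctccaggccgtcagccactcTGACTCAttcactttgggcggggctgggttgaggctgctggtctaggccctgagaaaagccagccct
LAMB1, chr7:108003162-108003411, minus strand: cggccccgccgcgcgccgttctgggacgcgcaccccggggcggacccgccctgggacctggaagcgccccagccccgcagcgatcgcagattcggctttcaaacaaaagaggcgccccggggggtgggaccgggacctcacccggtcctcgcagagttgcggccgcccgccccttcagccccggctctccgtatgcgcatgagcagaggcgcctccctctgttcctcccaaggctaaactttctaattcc
LAMC1, chr1:183023170-183023419, plus strand: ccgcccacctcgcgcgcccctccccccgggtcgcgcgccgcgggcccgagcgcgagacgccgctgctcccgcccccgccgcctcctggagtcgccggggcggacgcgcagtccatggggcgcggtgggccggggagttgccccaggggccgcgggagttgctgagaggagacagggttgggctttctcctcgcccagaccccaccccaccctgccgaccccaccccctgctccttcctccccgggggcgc

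The LAMA3 window held 2 matches, which began 125 and 69 bases before the start, a start that lies within the span of the gene and not at its 5′ end. The window of LAMB3 start 3 held 1 match, 67 bases before it, and the windows of the other LAMB3 starts, LAMB1, LAMC1, LAMA5 and ITGA6 held none. Over all 35116 promoter windows of the same length, 6.57% held at least 1 match and 0.402% held 2 or more. GGGCGG, read on both strands, had 1 match before LAMA3 and 1 before each LAMB3 start, against 4 before LAMB1 and 3 before LAMC1, and 42.6% of all windows held it. CATTCC was found before none of the 6 genes (11.9% of all windows) and CACGTG only before ITGA6 start 1 (6.34% of all windows). GC content was 60.4% before LAMA3 and 64%, 60% and 54% before LAMB3 starts 1, 2 and 3, against 70.4% before LAMB1 and 79.6% before LAMC1. It was 82.8% before LAMA5 and 50.8% and 71.6% before ITGA6 starts 1 and 2, with a median of 58% over all windows. Which LAMB3 start the cells used was not tested. The letters were chosen with the sequences in view, and a match in a window is a description of sequence.

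Of the 9 genes, LAMB3, ITGA3 and LAMB1 were higher in the resistant line and none was lower. The calls come from edgeR's quasi-likelihood test with a batch term, at a p adjusted by Benjamini-Hochberg over all tested genes of under 0.05. Of all tested genes 6.23% were called higher, 5.48% lower and 11.7% either way. The median log2 fold change of the 9 genes was 0.41, against -0.004 over all tested genes. Because the 9 genes were chosen with earlier results of these data known, this median and the counts called are only a description. At an unadjusted p under 0.05, 6 of the 9 were higher and 0 lower, beside 13.6% of all tested genes higher and 12.7% lower. DESeq2 called 5 higher and 0 lower, beside 8.03% of all genes higher and 7.77% lower. With limma voom 3 were higher and 0 lower, beside 6.07% of all genes higher and 5.25% lower. In 5 of the 9 genes the resistant and control libraries did not overlap in CPM, as was so for 20.9% of all tested genes. Over all genes, 1633 were called with all 6 libraries. The number called of the 9 was 0 without resistant replicate 3 (617 of all genes) and 1 without resistant replicate 2 (851). It was 5 without control replicate 2 (1596 of all genes). It was 2 without control replicate 1 (1064), control replicate 3 (1985) or resistant replicate 1 (1001). These fits tested 14057 to 14214 genes, and the same totals apply to the leave-out counts of the lists below.

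**Figure D1:**
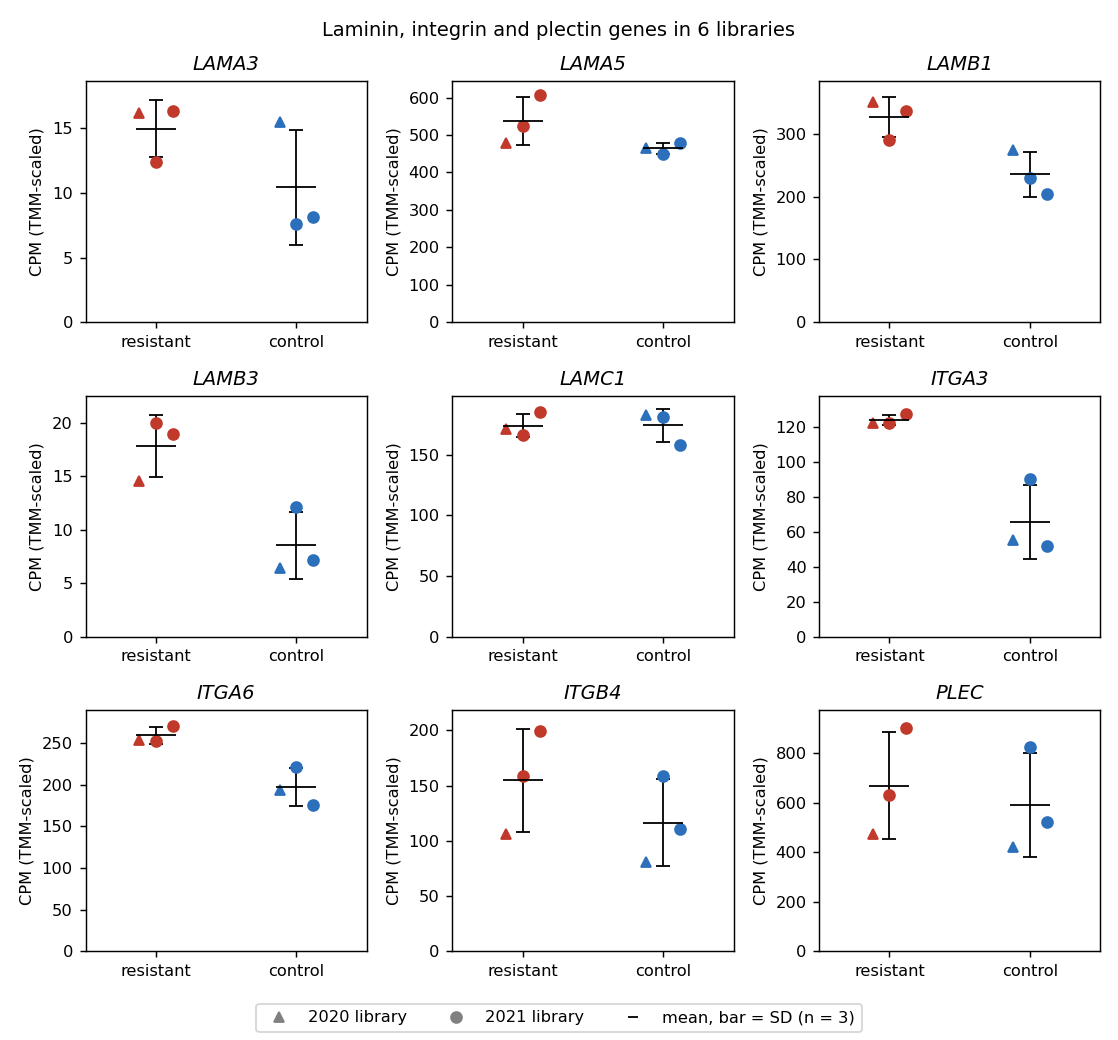
TMM-scaled CPM of each of the 9 genes (vertical axes from 0) in the resistant and control libraries, with triangles for the 2020 libraries, circles for the 2021 libraries, and the mean with its SD (n = 3). The groups separate for LAMB3, ITGA3, LAMB1, ITGA6 and LAMA5, and overlap for LAMA3, LAMC1, ITGB4 and PLEC.

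LAMB3 encodes the beta chain found in the epithelial anchoring laminin (Entrez gene 3914, chromosome 1, 209614870 to 209652425, GRCh38). It was at 14.6, 20.01 and 18.9 CPM in resistant replicates 1 to 3, against 6.39, 12.1 and 7.14 CPM in control replicates 1 to 3. Every resistant library lay above every control library, and control replicate 2 stood above the other two controls. LAMB3 rose 2.1-fold to 17.8 ± 2.88 CPM in resistant cells, against 8.55 ± 3.13 CPM in control cells (SD, n = 3 each; log2 fold change 1.07 ± 0.19 SE, edgeR adjusted p = 0.00905). The log2 difference was 1.19 in the 2020 pair and 1.06 in 2021. Without resistant replicate 3 the call ended (adjusted p = 0.0526).

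LAMA3 encodes the alpha chain that partners LAMB3 (chromosome 18, 23689453 to 23955066). It was at 16.2, 12.4 and 16.4 CPM in resistant replicates 1 to 3, against 15.5, 7.58 and 8.17 CPM in control replicates 1 to 3. The 2020 control library lay among the resistant libraries and both 2021 controls lay below them. LAMA3 averaged 15 ± 2.23 CPM in resistant and 10.43 ± 4.43 CPM in control cells and did not pass (log2 fold change 0.6 ± 0.19 SE, edgeR adjusted p = 0.0796). Between the lines LAMA3 differed by 0.06 (log2) in 2020 and by 0.86 in 2021, and whether the batches differ was not tested. Leaving out either 2020 library brought it past the threshold (adjusted p = 0.0249 without the control and 0.0262 without the resistant one), which leaves the difference to the 2021 libraries.

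LAMA5 encodes the alpha chain of the widespread epithelial laminin (chromosome 20, 62309065 to 62367312). It was at 479.5, 523 and 606 CPM in resistant replicates 1 to 3, against 466, 449 and 478 CPM in control replicates 1 to 3. The groups touched without overlap, since resistant replicate 1 stood just above control replicate 3. The difference did not pass (log2 fold change 0.2 ± 0.12 SE, edgeR adjusted p = 0.325).

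LAMB1 encodes a beta chain that assembles with LAMA5 and LAMC1 (chromosome 7, 107923799 to 108003161). It was at 352, 291 and 337 CPM in resistant replicates 1 to 3, against 275, 230 and 204 CPM in control replicates 1 to 3. The lowest resistant library stood above the highest control library. LAMB1 rose 1.39-fold to 327 ± 31.7 CPM in resistant cells, against 236 ± 35.9 CPM in control cells (log2 fold change 0.48 ± 0.12 SE, edgeR adjusted p = 0.0332). Under a replicate block it was 0.059, with the 2021 numbers crossed it was 0.0128, and the call also ended without each library in turn except control replicate 2 (adjusted p up to 0.143).

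LAMC1 encodes the gamma chain of the same trimer (chromosome 1, 183023420 to 183145592). It was at 171, 166 and 185 CPM in resistant replicates 1 to 3, against 183, 181 and 158 CPM in control replicates 1 to 3. The groups overlapped, and the log2 fold change was -0.0002 ± 0.11 SE (edgeR adjusted p = 0.999). Its sign turned with the setting, between -0.07 and 0.04 over 17 alternatives.

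Of 6 other laminin chain genes LAMC3 rose, 3 were tested without a call and 2 were too low to test (edgeR). At an unadjusted p under 0.05, with DESeq2 and with limma voom, 1 was higher and 0 lower. The edgeR count called was 0 without resistant replicate 3. LAMC3, a gamma chain, was low, at 1.16, 2.06 and 2.37 CPM in resistant and 0.373, 0.858 and 0.87 CPM in control libraries, and rose 2.69-fold (edgeR adjusted p = 0.00699). Its call ended without resistant replicate 3 (adjusted p = 0.0572) and without the batch term (adjusted p = 0.137). LAMB2, the alternative partner of LAMA5, averaged 165 ± 15.4 CPM in resistant and 186 ± 8.41 CPM in control cells (edgeR adjusted p = 0.281). LAMA4 averaged 62.8 ± 6.55 CPM in resistant and 67.6 ± 13.1 CPM in control cells (edgeR adjusted p = 0.582), and LAMA2 averaged 2.13 ± 0.92 and 2.15 ± 0.953 CPM (edgeR adjusted p = 0.98). LAMA1 had no count except 2 in control replicate 2, and LAMB4 had 2 to 7 counts per library.

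Levels of the alpha and beta chains were compared as TMM-scaled CPM divided by transcript length in kilobases (RPKM), with the longest GENCODE 29 transcript as the length. Among alpha chains, LAMA5 held 80.6 ± 1.046% of the summed RPKM in resistant and 78 ± 2.14% in control cells, and LAMA3 held 2.44 ± 0.441% and 1.89 ± 0.851%. Among beta chains, LAMB1 held 63 ± 4.57% in resistant and 53.8 ± 4.89% in control cells, LAMB2 held 32.4 ± 3.77% and 43.5 ± 4.59%, and LAMB3 held 4.62 ± 0.822% and 2.63 ± 0.985%. The LAMB2 share was 28.9 to 36.4% over the resistant libraries and 39 to 48.2% over the control libraries, so the groups did not overlap in share. The level of LAMB2 itself overlapped, at 148 to 178.6 CPM in resistant and 178.5 to 195 CPM in control libraries. A share also depends on the levels of the other chains in the sum and on the transcript lengths used. These shares are a description with no test.

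**Figure D2:**
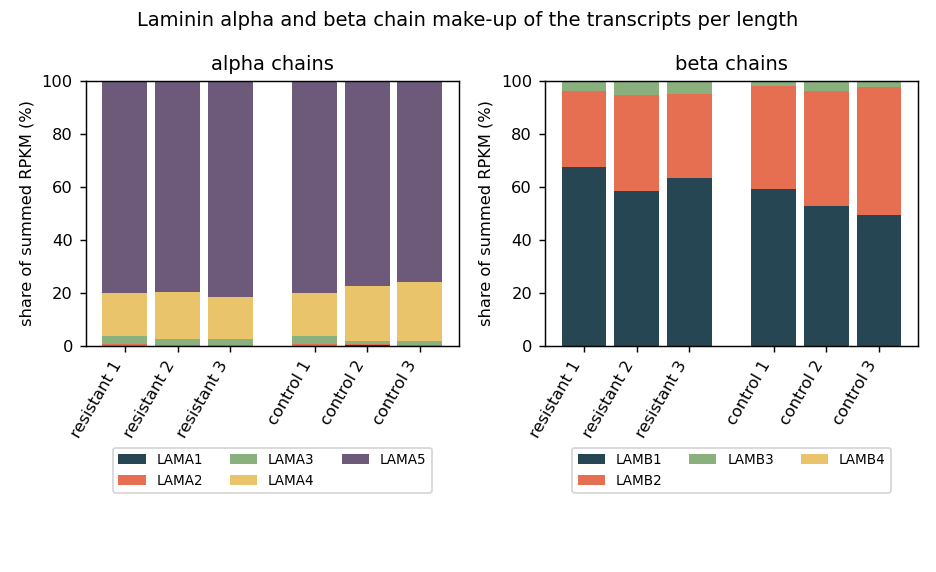
Share (%) of each laminin chain in the summed RPKM of its class (alpha or beta) in each resistant and control library. LAMA5 fills most of the alpha class in all 6 libraries, and the LAMB2 band is narrower in each resistant library (28.9 to 36.4%) than in each control library (39 to 48.2%). The level of LAMB2 itself was not called.

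ITGA3 encodes the alpha subunit of a laminin receptor that pairs with ITGB1 (chromosome 17, 50056110 to 50090481). It was at 122, 122 and 127 CPM in resistant replicates 1 to 3, against 55.4, 90.1 and 51.7 CPM in control replicates 1 to 3. The resistant libraries were close to one another and above every control library, among which replicate 2 was highest. ITGA3 rose 1.89-fold to 124 ± 2.87 CPM in resistant cells, against 65.7 ± 21.2 CPM in control cells (log2 fold change 0.92 ± 0.2 SE, edgeR adjusted p = 0.0236). In 2020 the lines differed by 1.14 (log2) and in 2021 by 0.87. The call ended without control replicate 1 or without any 1 resistant library (adjusted p up to 0.123).

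ITGA6 encodes the alpha subunit shared by a focal adhesion receptor and the hemidesmosome (chromosome 2, 172427336 to 172506459). It was at 254, 253 and 271 CPM in resistant replicates 1 to 3, against 194, 222 and 176 CPM in control replicates 1 to 3. No control library reached the resistant libraries. The difference did not pass (log2 fold change 0.4 ± 0.12 SE, edgeR adjusted p = 0.0674), and it was 0.39 in 2020 and 0.41 in 2021. It passed without control replicate 2 (adjusted p = 0.0239), with DESeq2 (adjusted p = 0.0143) and with upper quartile scaling (adjusted p = 0.0379).

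ITGB4 encodes the beta subunit found only with ITGA6, whose long tail binds plectin (chromosome 17, 75721459 to 75757818). It was at 106, 159 and 199.5 CPM in resistant replicates 1 to 3, against 80.6, 158 and 110 CPM in control replicates 1 to 3. The groups overlapped, with control replicate 2 level with resistant replicate 2. The difference did not pass (log2 fold change 0.41 ± 0.15 SE, edgeR adjusted p = 0.122), and it was 0.4 in 2020 and 0.43 in 2021. It passed without control replicate 2 (adjusted p = 0.0408). GALK1 overlaps ITGB4 over 6350 bases and was at 11.4 CPM in resistant and 13.2 CPM in control cells.

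PLEC encodes plectin, which links ITGB4 to keratin filaments (chromosome 8, 143915153 to 143976745). It was at 475, 630 and 902 CPM in resistant replicates 1 to 3, against 424, 827 and 524 CPM in control replicates 1 to 3. The spread within each group was wider than the gap between the groups, whose means were 669 ± 217 CPM in resistant and 591 ± 210 CPM in control cells. The log2 fold change was 0.18 ± 0.2 SE and did not pass (edgeR adjusted p = 0.62).

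**Figure D3:**
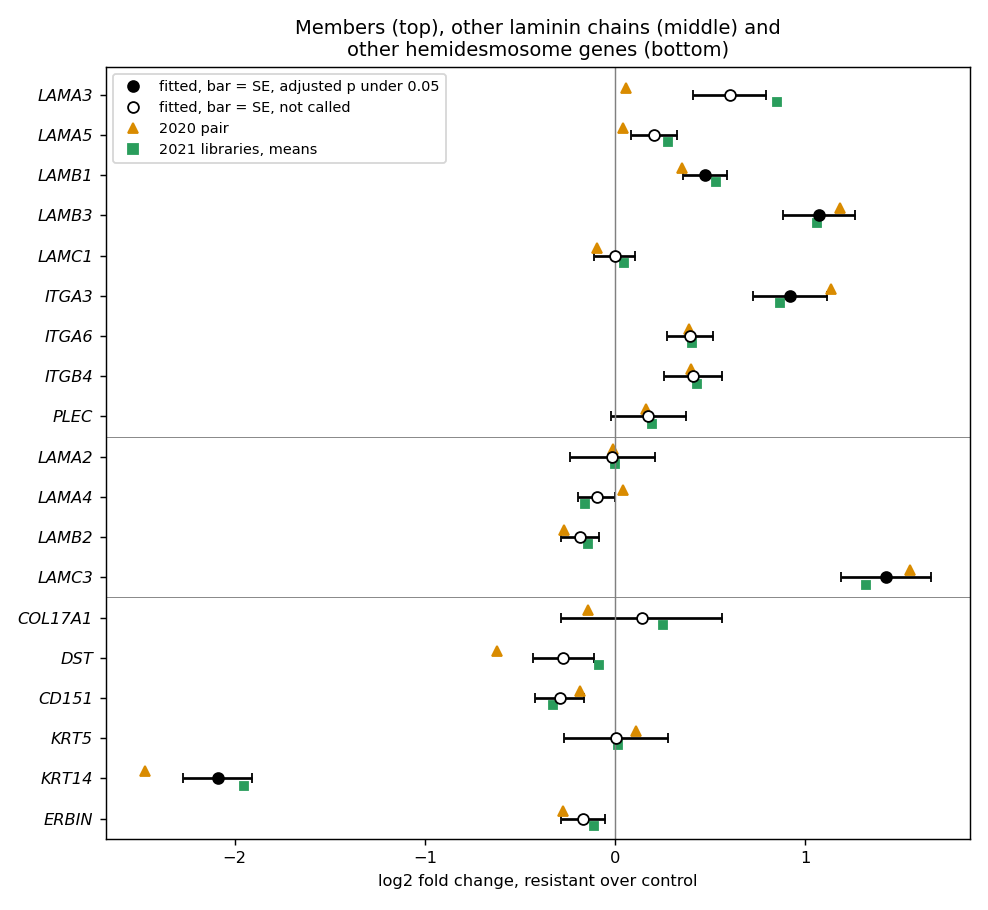
Log2 fold change (horizontal axis, resistant over control) of the 9 genes, of 4 other laminin chains and of 6 other hemidesmosome genes, as fitted values with SE (filled where called) beside the 2020 and 2021 differences. LAMB3, ITGA3 and LAMC3 lie to the right in both batches, KRT14 lies far to the left, and the 2 batches are far apart for LAMA3 (0.06 and 0.86).

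Per kilobase of transcript, the order of the 9 levels in resistant cells was LAMB1 at 56.6 ± 5.49 RPKM, LAMA5 at 46.9 ± 5.6, ITGA6 at 46.2 ± 1.79, PLEC at 43.9 ± 14.2, ITGB4 at 26.2 ± 7.89, ITGA3 at 22.6 ± 0.524, LAMC1 at 22.1 ± 1.23, LAMB3 at 4.14 ± 0.67 and LAMA3 at 1.41 ± 0.209 RPKM. In control cells the order was LAMB1 at 41 ± 6.23 RPKM, LAMA5 at 40.6 ± 1.24, PLEC at 38.8 ± 13.8, ITGA6 at 35.1 ± 4.15, LAMC1 at 22.1 ± 1.74, ITGB4 at 19.7 ± 6.62, ITGA3 at 12 ± 3.87, LAMB3 at 1.99 ± 0.726 and LAMA3 at 0.978 ± 0.415 RPKM. By transcript length, LAMA5, ITGA6 and PLEC lay within their spread of one another in resistant cells, as did ITGB4, ITGA3 and LAMC1. LAMB3 and LAMA3 stood below the other 7 in both groups. With the coding length instead, ITGA6 was the highest, at 76.5 ± 2.96 RPKM in resistant and 58.2 ± 6.87 RPKM in control cells. By that length ITGA6 stood above LAMA5 (48.4 ± 5.77 RPKM) and PLEC (47.6 ± 15.4 RPKM) in resistant cells. ITGA3 was then at 38.7 ± 0.898 RPKM, LAMC1 at 36.05 ± 2 RPKM and ITGB4 at 28.4 ± 8.54 RPKM. The order thus depends on the length used, and differences in exome probe capture between genes were not tested. Both lengths are the longest of each gene, so a gene expressed as a shorter form would have a higher RPKM. Which forms were expressed was not tested, and the LAMA3 start shown above lies within the gene.

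Of 6 other hemidesmosome genes 1 fell and none rose (edgeR). At an unadjusted p under 0.05, 2 were lower and 0 higher. DESeq2 and limma voom each called 1 lower and 0 higher. The median log2 fold change was -0.22. Without control replicate 3, 2 were lower. KRT14, a basal keratin that plectin ties to the plaque, was at 2.42, 11 and 7.59 CPM in resistant replicates 1 to 3, against 13.6, 33.3 and 37.6 CPM in control replicates 1 to 3, a fall with an edgeR adjusted p of 0.000894 that held in all 6 fits leaving out 1 library. Without the batch term the adjusted p of KRT14 was 0.127. KRT14 is near identical to other keratin genes, so its reads may be split. KRT5, its keratin partner, averaged 767 ± 238 CPM in resistant and 771 ± 370 CPM in control cells (edgeR adjusted p = 0.992). COL17A1, the transmembrane collagen of hemidesmosomes, was low, with 12 to 35 counts per library. It was at 0.228 to 0.539 CPM in resistant and 0.215 to 0.596 CPM in control libraries. DST, whose epithelial form is a plaque protein, averaged 402 ± 35.8 CPM in resistant and 498 ± 160 CPM in control cells (edgeR adjusted p = 0.324). CD151, a tetraspanin bound to laminin-binding integrins, averaged 85.3 ± 10.2 CPM in resistant and 105 ± 25.9 CPM in control cells (edgeR adjusted p = 0.185), and ERBIN, which binds ITGB4, averaged 35.5 ± 2.86 CPM and 40.1 ± 7.29 CPM (edgeR adjusted p = 0.393).

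Of 23 other integrin subunits 19 were tested, and ITGA1, ITGA2, ITGB1 and ITGB8 rose while none fell (edgeR; 6 higher and 0 lower at an unadjusted p under 0.05 and with DESeq2, 4 and 0 with limma voom). The count higher was 2 without resistant replicate 2 or without resistant replicate 3, and without resistant replicate 2, 1 was called lower. The median log2 fold change was 0.32. ITGA2, a collagen and laminin receptor subunit, was at 86.8, 75.8 and 78.1 CPM in resistant replicates 1 to 3, against 48.5, 42.8 and 38.3 CPM in control replicates 1 to 3, and rose 1.86-fold (edgeR adjusted p = 0.0014). ITGA1, of the same kind, was low, with 32, 230 and 152 counts in resistant and 7, 6 and 18 counts in control libraries, and rose 10.3-fold (edgeR adjusted p = 0.0047). The calls of ITGA1 and ITGA2 held under all 17 alternatives.

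ITGB1, the partner of ITGA3, ITGA2 and ITGA1, averaged 417 ± 47.7 CPM in resistant and 303 ± 72.3 CPM in control cells, and rose 1.4-fold (edgeR adjusted p = 0.0348). Its groups overlapped, its adjusted p with the replicate block was 0.057, and its call ended without any 1 of the 6 libraries (up to 0.141). ITGB8, which binds latent TGF-beta, rose 1.53-fold (edgeR adjusted p = 0.0199), a call that ended without resistant replicate 2 or 3 (up to 0.105). Among the integrins tested without a call, ITGAV averaged 369.8 ± 43 CPM in resistant and 319 ± 41.8 CPM in control cells, ITGB5 214 ± 8.2 and 205 ± 33.1 CPM, and ITGB6 143 ± 12.9 and 117 ± 29.9 CPM. ITGAE was at 19.1 ± 2.19 and 19.4 ± 2.97 CPM, ITGA9 at 15.9 ± 13 and 8.11 ± 2.31 CPM, and ITGA5, the fibronectin receptor subunit, at 13.4 ± 4.52 and 16.7 ± 3.08 CPM, each in resistant and then control cells. ITGA2B, ITGA7, ITGA10, ITGAL, ITGAM, ITGAX, ITGB2, ITGB3 and ITGB7 were at 3.84 CPM or less on average in either group, with adjusted p of 0.0513 to 0.851. The lowest was that of ITGAX, with 20, 21 and 26 counts in resistant and 9, 3 and 0 counts in control libraries (log2 fold change 2.36 ± 0.65 SE). ITGAX and ITGB3 passed with DESeq2 (adjusted p = 0.0416 and 0.0249). ITGA4 and ITGA8 had no count in any library, and ITGA11 and ITGAD were below the filter.

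Of 17 other basement membrane genes 14 were tested, and 5 rose while none fell (edgeR; 6 higher and 0 lower at an unadjusted p under 0.05 and with DESeq2, 5 and 0 with limma voom). HSPG2, which encodes perlecan, was at 130, 202 and 252 CPM in resistant replicates 1 to 3, against 60, 80.6 and 71 CPM in control replicates 1 to 3, and rose 2.69-fold (edgeR adjusted p = 0.00124). COL4A1, a collagen IV chain, was at 66.4, 139 and 149 CPM in resistant replicates 1 to 3, against 24.1, 37 and 22.6 CPM in control replicates 1 to 3, and rose 4.02-fold (edgeR adjusted p = 0.00367). Its partner COL4A2 rose 4.41-fold, and COL4A3 and COL4A4 rose 1.69-fold and 1.47-fold. The calls of HSPG2, COL4A1 and COL4A2 held under all 17 alternatives. COL4A3 did not pass once control replicate 1 or any 1 resistant library was left out (adjusted p up to 0.0869), and COL4A4 without any 1 library except control replicate 2 (up to 0.185) and with the replicate block (0.065). NID1, which encodes the nidogen that bridges laminin to collagen IV, had no count in any library. AGRN, the agrin gene, averaged 739 ± 104 CPM in resistant and 540 ± 116 CPM in control cells and did not pass (edgeR adjusted p = 0.0746). The count higher was 7 without control replicate 2 and 3 without control replicate 1 or any 1 resistant library. Without control replicate 3 it was 4, and 1 gene was called lower.

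Of 10 proteases that cut laminins or their partners 6 were tested and 3 rose, with none lower (edgeR; 5 higher and 0 lower at an unadjusted p under 0.05 and with DESeq2, 3 and 0 with limma voom). MMP14, a membrane protease, was at 41.6, 56.5 and 48.5 CPM in resistant replicates 1 to 3, against 32.1, 31.7 and 33.7 CPM in control replicates 1 to 3, and rose 1.5-fold (edgeR adjusted p = 0.0124). MMP2, a gelatinase that MMP14 activates, rose 1.74-fold (edgeR adjusted p = 0.0205), and PLAT, a plasminogen activator, rose 1.98-fold at a mean of 1.52 CPM in resistant and 0.764 CPM in control cells. PLAT had an adjusted p of 0.0631 under the block by replicate number, and its call also ended without any 1 library except control replicate 3 (up to 0.137). MMP14 lost its call without resistant replicate 2 or 3 (up to 0.0645), and MMP2 without either 2020 library or without resistant replicate 3 (up to 0.111). The count was 1 without resistant replicate 2 and 0 without resistant replicate 3. BMP1, which processes laminin chains, averaged 55.2 ± 13.5 CPM in resistant and 47.5 ± 9.74 CPM in control cells and did not pass.

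Of 6 non-integrin laminin receptors tested 1 fell and none rose (edgeR). At an unadjusted p under 0.05, 1 was higher and 2 were lower. DESeq2 called 0 higher and 2 lower, and limma voom 0 higher and 1 lower. SDC1, the heparan sulfate proteoglycan syndecan-1, was at 202, 204 and 199 CPM in resistant replicates 1 to 3, against 296, 320 and 292 CPM in control replicates 1 to 3, and fell (log2 fold change -0.59 ± 0.1 SE, edgeR adjusted p = 0.00832). Without resistant replicate 3 its adjusted p was 0.0501. DAG1, the dystroglycan gene, averaged 289 ± 75.2 CPM in resistant and 325 ± 85.3 CPM in control cells, and BCAM, a receptor of LAMA5, averaged 213 ± 21.9 and 176 ± 40 CPM, and neither passed. Of 21 focal adhesion genes 1 rose and none fell (edgeR; 6 higher and 0 lower at an unadjusted p under 0.05, 4 and 0 with DESeq2, 1 and 0 with limma voom). That gene, TNS3, a tensin, rose 1.8-fold (edgeR adjusted p = 0.00408), with overlapping groups and an adjusted p of 0.256 without the batch term. Without control replicate 2, and also with the replicate block, 3 focal adhesion genes were called higher. Of 5 other plakins tested, DSP, the desmosomal plakin, averaged 1454 ± 238 CPM in resistant and 2420 ± 379 CPM in control cells and fell (edgeR adjusted p = 0.028, 0.0547 with the replicate block). The call of DSP ended without any 1 library except control replicate 3 (up to 0.127). Of 6 tetraspanins that bind integrins, 0 were called by edgeR or limma voom, 2 were lower and 0 higher at an unadjusted p under 0.05, and DESeq2 called 1 lower. Without control replicate 3, edgeR called 2 focal adhesion genes and 2 tetraspanins lower.

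Across the 6 libraries the 9 genes fell into patterns that followed both group and library. The log2 CPM of ITGA3 correlated with that of ITGA6 at a Pearson r of 0.983 and with that of LAMB3 at 0.969. ITGB4 and PLEC correlated at 0.949, and both were highest in resistant replicate 3 and lowest in control replicate 1. LAMA3 correlated with LAMB1 at 0.9 and with its partner LAMB3 at 0.294. Among 10516 other genes with a mean of at least 5 CPM, those most like ITGA3 were MMP2 (r = 0.997) and STK32C (0.995), and MGAT5 correlated with ITGA6 at 0.994. For LAMB3 these were ACOT11 and FSCN1 (both 0.995), for LAMB1 INPP4B (0.994) and THRB (0.991), for ITGB4 ACACB (1) and FAM53B (0.996), and for PLEC MYH10 (0.995) and DLGAP4 (0.992). For LAMA3 they were CRYBG3 (0.993) and ZNF664 (0.985), for LAMA5 DCLRE1C and SMG1 (both 0.99), and for LAMC1 FOXO3 (0.97) and LEO1 (0.945). All of these rest on the same 6 libraries, with their shared batch and group, and are descriptions with no test.

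The 9 genes lie on 7 chromosomes. The 10 nearest tested neighbours of each had a median log2 fold change between -0.17 (around ITGB4) and 0.13 (around ITGA6). Around LAMB3 the median was -0.08 and 1 of 10 neighbours was called higher and 1 lower, and around ITGA3 it was 0.12 with no call. Around LAMB1 the median was 0.04 with 1 call, that of NRCAM, a neuronal adhesion molecule (log2 fold change 2.91). LAMB3, ITGA6 and ITGB4 each had a log2 fold change above those of all 10 neighbours, and LAMB1 and ITGA3 above those of 9 of 10. LAMA3 and PLEC were above 8 of 10, LAMA5 above 7 and LAMC1 above 5.

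**Figure D4:**
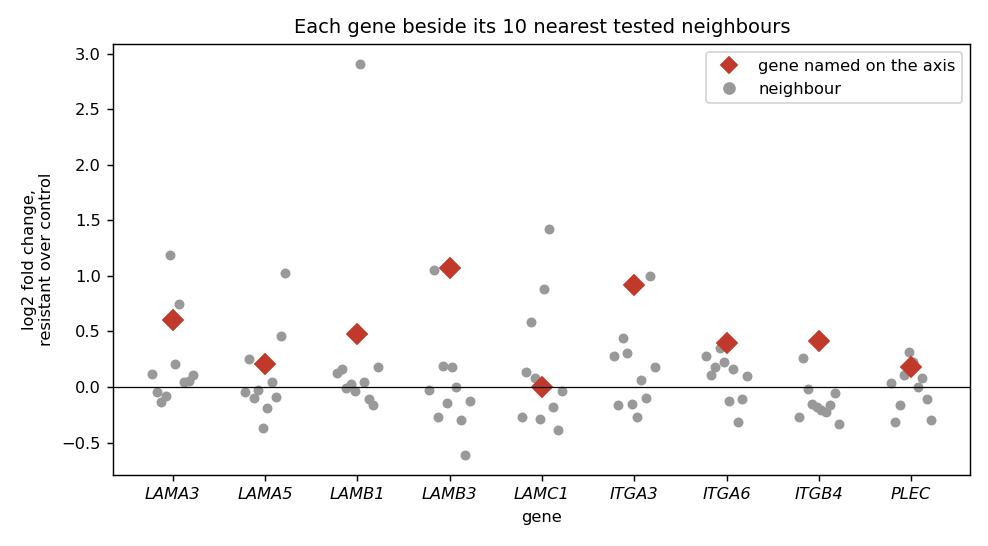
Log2 fold change (vertical axis, resistant over control) of each of the 9 genes (diamonds) and of its 10 nearest tested neighbours on the chromosome (circles). The neighbours of LAMB3 and ITGA3 centre near 0 (medians -0.08 and 0.12) while LAMB3 and ITGA3 lie at 1.07 and 0.92.

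Over the 17 other settings, the log2 fold change of LAMB3 lay between 0.88 and 1.34, that of ITGA3 between 0.74 and 1.21, and that of LAMB1 between 0.39 and 0.53. LAMB3 passed in 15 of the 17, ITGA3 in 11 and LAMB1 in 9. ITGA6 passed in 6, LAMA3 in 5 and ITGB4 in 3, whereas LAMA5, LAMC1 and PLEC passed in none of the 17. The 17 are not all separate checks. With the batch term, leaving out replicate 1 of either line leaves the difference to the 2021 libraries. Without control replicate 1, without resistant replicate 1 and in the 2021 libraries alone, LAMA3 was at 0.86, 0.87 and 0.87 (log2). ITGA3 was at 0.8, 0.81 and 0.81. LAMA3 passed in each of these fits and ITGA3 in none of them. Without the batch term none of the 9 passed, with adjusted p of 0.0695 for ITGA3 and 0.0858 for LAMB3. Calls were few over all genes in that fit, at 362 of 13950 (197 higher), against 1633 (869 higher) with the batch term. The calls of LAMC3, KRT14, ITGB1, ITGB8, COL4A3, COL4A4, MMP2, MMP14, PLAT, TNS3 and DSP ended in that fit too. Their edgeR adjusted p then lay between 0.0658 and 0.306.

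**Figure D5:**
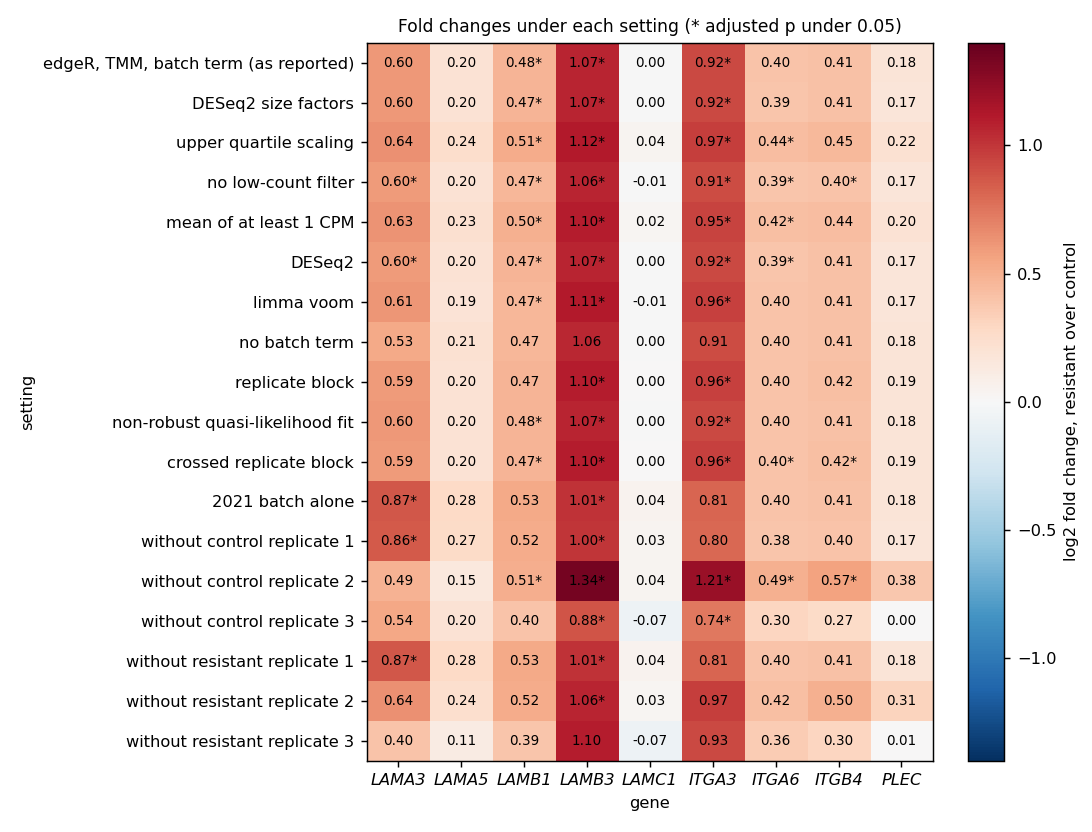
Log2 fold change (colour scale and numbers, resistant over control) of each of the 9 genes (columns) as reported and under 17 other settings (lines of the grid), with * for an adjusted p under 0.05. LAMB3 carries * in 15 of the 17 other settings, and LAMA5, LAMC1 and PLEC carry none.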

How the data were processed

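RNA-seq covered 6 libraries, 3 of MDA-MB-468-PR and 3 of parental MDA-MB-468. The values are whole-number counts per Entrez gene ID, deposited without normalisation, and library names tie every column to a sample. The submitters' processing notes name Trimmomatic 0.38, STAR 2.7.8a, featureCounts of Subread and the build GRCh38. No source used here gives the strand setting or annotation release, so overlapping genes may share reads.

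Symbols and positions came from a RefSeq table of GRCh38.p14, which matched 27745 of 28395 IDs. Genes passing filterByExpr by group were scaled by TMM and tested in R 4.3.3 with edgeR 4.0.16 (robust quasi-likelihood fit, batch and group as terms, 3 residual degrees of freedom). Log2 CPM used a prior count of 2, SE values were derived from the F statistic, and RPKM used GENCODE 29 lengths.

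The 9 genes, the other lists and the rule for named genes were chosen with earlier results of these data known. The rule names the 9 genes, every called gene of the other lists, all laminin, hemidesmosome and integrin genes, and the 2 genes most correlated with each of the 9. Results for 1 further gene are not reported here. AGRN, NID1, BMP1, DAG1 and BCAM fall outside the rule and were chosen after their values were seen. Libraries of 1 group differed from each other beyond sampling noise (chi-square over its degrees of freedom was 70 to 215). Whether replicates grew as separate cultures is not stated, so the spread behind the p-values may be technical.

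The labels give both lines replicates 1 to 3. Deviations from the group mean correlated across genes at 0.729, 0.143 and 0.155 for libraries of the same number. The 2021 libraries of unlike number correlated more, at 0.477 (resistant replicate 2 with control replicate 3) and 0.57 (resistant replicate 3 with control replicate 2). The fit with the number as a block is printed wherever it changes a call. The first pair is the 2020 batch. Alternatives used size factors of DESeq2, upper quartile scaling, all genes unfiltered, a mean of at least 1 CPM, DESeq2 1.42.0 and limma 3.58.1 voom as tests, no batch term, the replicate block, only the 2021 libraries, and each library left out. A fit without robust estimation and a crossed block were added after seeing the data.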

Additional observations from a re-analysis of the deposited data

How the results depend on the processing

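Of 13950 tested genes 1633 were called, 869 higher and 764 lower. These were 362, 197 and 165 without the batch term and 1012, 564 and 448 in the 2021 libraries alone. Leaving out 1 library gave 617 to 1985, of them 338 to 986 higher and 279 to 999 lower. With the replicate block they were 1303, 693 and 610. Of the 9 genes 3 were called, all higher. The number was 0 without the batch term, 5 with DESeq2 (2204 of all genes called), 5 with a crossed block (2254; resistant replicate 2 with control replicate 3, and resistant replicate 3 with control replicate 2) and 6 with no filter on low counts (2286). It was 0 to 5 when 1 library was left out, and none of the 9 was called lower in any setting. The replicate block ended the calls of LAMB1, ITGB1, COL4A4, PLAT and DSP and of no other of the 49 genes recomputed. The crossed block ended none of these 5.

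Among these 49, signs of the log2 fold change turned only in genes without a call. LAMC1 was at 0.0396 with upper quartile scaling, 0.0238 with a mean of at least 1 CPM, 0.0005 with the replicate block, 0.0007 with the crossed block and 0.0447 in the 2021 libraries alone. Leaving out 1 library gave LAMC1 -0.0743 to 0.0447. LAMA2 was at 0.0285 with upper quartile scaling and 0.0121 with a mean of at least 1 CPM, and ITGAE at 0.0209 and 0.0063. KRT5 was at -0.0007 with no filter, -0.008 without the batch term and -0.0478 in the 2021 libraries alone, and ITGB5 at -0.0012 in the 2021 libraries. Leaving out 1 library gave LAMA2 -0.1438 to 0.1232, COL17A1 -0.2913 to 0.4017, KRT5 -0.2334 to 0.3633, ITGA10 -0.2204 to 0.5585, ITGAE -0.1305 to 0.0959, ITGAL -0.0563 to 0.2087, ITGAM -0.0574 to 0.9823, ITGB2 -0.1498 to 0.3175 and ITGB5 -0.0447 to 0.2165. The cause of these turns was not tested. Of 829 values of 49 genes under up to 17 alternatives (COL17A1, ITGA7, ITGA10 and ITGAX could not be tested at a mean of at least 1 CPM), 695 kept direction and side of the threshold, 71 lost a call, 27 gained one and 36 changed sign. The fits on the 2021 libraries alone and without replicate 1 of either line rest on the same comparison, but each was counted.

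With 3 libraries a group and 1 derivative, differences such as those of ITGA6 and LAMA3 lie near the threshold (edgeR adjusted p = 0.0674 and 0.0796). The ITGB4 difference lay further from it (edgeR adjusted p = 0.122) and passed in 3 of the 17 other settings. LAMA1, LAMB4, ITGA11 and ITGAD lie near or below the limit that a count of 0 allows.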
